A study of Drosophila melanogaster with 5 samples.

Results

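The ecdysone receptor and the transcription factors that first answer the steroid hormone ecdysone were followed in cholinergic neurons of Drosophila melanogaster from embryo culture and from larval brain. The genes considered were EcR, usp, Eip74EF, Eip75B, Eip78C, br, ftz-f1, Hr3, Hr4 and Hr39, 10 in all. A probe set was taken as belonging to one of them where the array's annotation gives it that symbol and no other. This found 13 of the 13966 tested probe sets, for 8 of the 10 genes: 3 for br, 2 each for EcR, Hr3 and Hr4, and 1 each for usp, Eip78C, ftz-f1 and Hr39. Eip74EF and Eip75B are named by no probe set of the annotation and were not analysed here.

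RNA was measured on 5 arrays. Embryo culture (4 arrays, replicates a, b, c and d) is RNA of neurons sorted by fluorescence from cultured embryonic cells, and larval brain (1 array) is RNA of neurons sorted from dissociated larval brain. All 5 samples carry the same transgene pair, Cha-Gal4:UAS-GFP, in which 7.4 kb of regulatory DNA of the choline acetyltransferase gene drives Gal4 and hence green fluorescent protein, so that a cell enters a sample by the activity of that fragment. The age of the embryos, the time in culture and the larval stage are not stated in the labels, nor is whether the 4 embryo culture samples are independent cultures, and the p-values below therefore rest on a spread that may be technical. The larval brain group has no replicate.

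Ecdysone, in its active form 20-hydroxyecdysone, binds a heterodimer of the nuclear receptors EcR and usp, and the occupied receptor switches on early genes that encode further transcription factors. These early regulators, such as br, then act on later nuclear receptors, among them Hr3, Hr4 and Hr39, and through Hr3 on ftz-f1, which gives tissues the competence for the next hormone pulse. In the fly nervous system the cascade is known for the remodelling of larval neurons at metamorphosis, where EcR and ftz-f1 are needed for axon pruning, and for the timing of larval neuroblasts.

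Values are probe set intensities on the scale the authors deposited, each array having a mean of 500.06 to 500.08 after 2% of the probe sets were trimmed at each end. Background was taken on each array from the brightest of 23 controls that carry yeast, mouse and bacterial sequences. Culture arrays a, b, c and d had backgrounds of 147.8, 200.4, 119.0 and 271.3, and larval brain had 82.6. Differences are larval brain minus embryo culture on a log2(intensity + 47.5) scale, with the standard error (SE) of a limma fit over all tested probe sets and Benjamini-Hochberg adjusted p-values. In this fit 455 probe sets passed an adjusted p of 0.05, 3.26% of those tested, with 0.866% higher and 2.39% lower in larval brain. The sorted samples carried ChAT, the enzyme that makes acetylcholine, at 1456.8 to 2926.5 in embryo culture and 2254.7 in larval brain, above background throughout. The neuronal gene elav was at or under background on embryo culture arrays a and b (103.8 and 61.4), above it on c and d (712.6 and 666.7), and at 3047.2 in larval brain. Of the other neuronal markers measured, nSyb, futsch, fne and nrv3 were also lower on a and b than on c and d. In contrast, brp was higher on a and b (124.7 and 241.2 against 19.6 and 61.9), and CadN and para overlapped between the pairs. The markers futsch, fne, nrv3 and CadN were above background on all 4 culture arrays. Arrays a and b also had the strongest 3′ bias in 3 control messenger RNAs, with a mean log2 ratio of 3′ to middle signal of 2.450 and 2.345 against 1.495 and 1.660 on c and d and 1.146 in larval brain. In these bulk samples, fewer cells of a type and less RNA per cell cannot be told apart.

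None of the 13 probe sets passed the limma test, and 2, both of br, had an unadjusted p under 0.05, against 16.0% of all tested probe sets. The largest difference was that of br, whose brightest probe set stood at 1641 in larval brain and at no more than 315.7 on any embryo culture array (adjusted p = 0.0548). The receptor genes EcR and usp were detected in both sources. The nuclear receptor genes Hr3, Hr4 and Eip78C were mostly under background in embryo culture, in part far under it, with each probe set above it on at most 1 of 4 culture arrays. Differences were positive for 9 of the 13 probe sets and negative for 4, with a median of 0.76 on the log2 scale against -0.07 over all tested probe sets, of which 46.0% had positive differences. This median did not hold its direction throughout. Of 16 alternatives, 12 kept it within 0.52, the SD of the medians against single culture arrays, 2 moved it and 2 reversed it. It was 0.21 with 1 probe set a gene and 0.10 with the 3′ to 5′ ratio of control transcripts as a covariate. It turned to -0.02 with their 3′ to middle ratio and to -0.18 with values raised to the background of their array. Larval brain lay above all 4 embryo culture arrays for 5 probe sets (3 of br, 1 of EcR and 1 of Hr4) and below all 4 for 3 (usp, ftz-f1 and 1 of Hr3). Over all tested probe sets 25.6% lay above and 28.6% below the embryo culture arrays in this way, so the 13 probe sets are described here by their values.

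**Figure D1:**
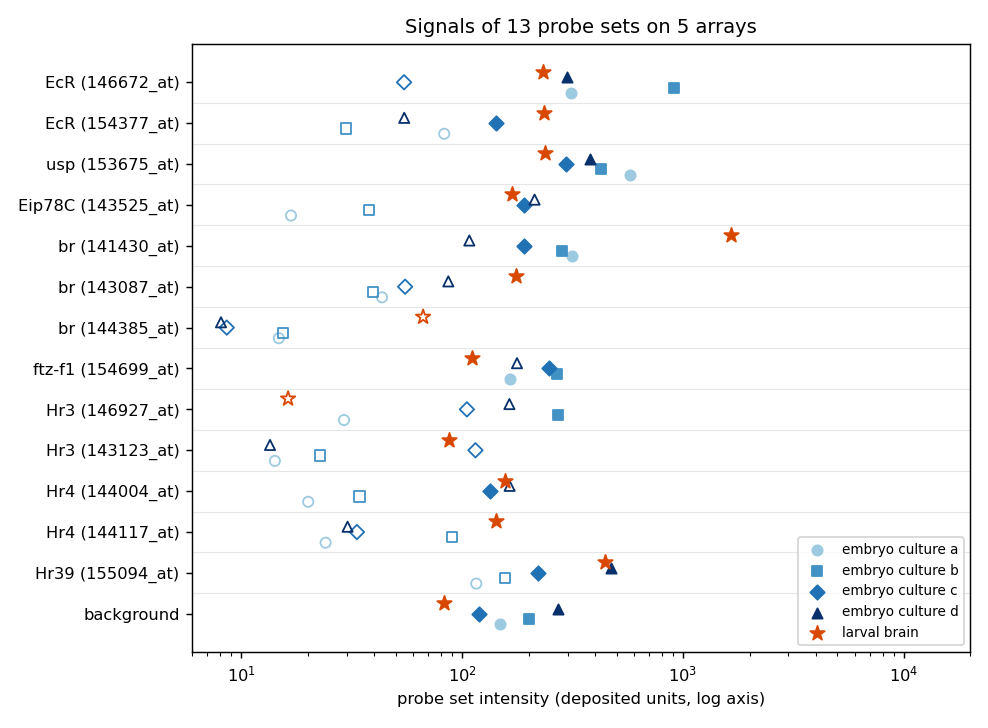
Intensity (log axis, deposited units) of the 13 probe sets on the 4 culture arrays and in larval brain, with the background of each array in the last row. Filled symbols lie above the background of their own array and open symbols at or under it. Each row is to be read along itself, since levels of different probe sets are not comparable. The larval brain star of br (141430_at), at 1641, stands apart from its 4 embryo culture symbols.

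The larval brain array detected more of these probe sets than any embryo culture array. Above background were 4, 5, 7 and 3 of the 13 for cultures a, b, c and d and 11 of 13 for larval brain. Of all tested probe sets, 59.6%, 53.8%, 61.9% and 48.6% were above background in the cultures in that order, and 68.0% in larval brain. The latter shares run opposite to the backgrounds, with d the highest background and larval brain the lowest. Only usp was above background on all 5 arrays, as were 37.8% of all tested probe sets. Only 144385_at of br was at or under it on all 5, as were 21.4% of all.

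EcR encodes the hormone-binding receptor and is covered by 2 probe sets that behaved differently. Probe set 146672_at read 310.5, 910.8, 54.6 and 298.7 across culture arrays a to d and 233.2 in larval brain. The larval brain value lay inside the embryo culture range, which itself spanned 16.7-fold, with array b the highest and array c under background. The mean was 394 ± 364 (SD, n = 4), and the log2 difference was -0.24 ± 1.01 (SE), with a 95% interval from -2.53 to 2.05 (limma adjusted p = 0.936). Probe set 154377_at read 83.0, 29.7, 142.9 and 54.7 in embryo culture and 235.9 in larval brain. Here the larval brain value lay above every embryo culture array, only c of which was above background. The log2 difference was 1.26 ± 0.66, with an interval from -0.24 to 2.76 (adjusted p = 0.411).

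The highest and lowest embryo culture arrays changed places between these probe sets of EcR: array b was the highest of the 4 in 146672_at and the lowest in 154377_at, and array c the lowest in 146672_at and the highest in 154377_at. After each probe set was centred on its embryo culture mean, their profiles differed by a mean of 1.27 on the log2 scale over the 5 arrays, the widest gap among the probe sets of any gene followed here. EcR is known to make several isoforms from different promoters. Which transcripts each probe set reads is not given in the sources used here, so no level of EcR as a whole is given. Against arrays a and b alone the difference of 146672_at was -1.06, and against c and d alone 0.58, so its direction depends on which embryo culture arrays are used. Without array b it was 0.27.

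usp encodes the partner of EcR in the receptor, the fly counterpart of the vertebrate retinoid X receptors. Its signal was 576.2, 423.3, 294.1 and 380.1 across culture arrays a to d and 237.5 in larval brain. The highest culture value was 1.96 times the lowest, and larval brain was below all 4 arrays. The mean was 418 ± 118 (SD, n = 4), and the log2 difference of -0.68 ± 0.55 did not pass the test (interval -1.91 to 0.56, adjusted p = 0.611). The interval holds falls of several fold as well as a slight rise. Set against a and b alone the difference was -0.93, and set against c and d -0.42.

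The genes whose profile over the 5 arrays came closest to these receptor genes were found by the mean absolute difference of log2 values, each centred on its embryo culture mean, among 7322 probe sets that name 1 gene and whose higher group mean exceeds 224.8, the median of all signals. For usp they were Pp2B-14D (0.05), which encodes a calcineurin catalytic subunit, GlcAT-S (0.06), a glucuronyltransferase gene, and Nopp140 (0.08), which encodes a nucleolar protein. For EcR (146672_at) they were org-1 (0.30), a T-box transcription factor gene, pippin (0.30) and Mob2 (0.31). Such distances grow with a profile's own spread, and the SD of the log2 values in embryo culture was 1.32 for EcR (146672_at) and 0.36 for usp. The distances are therefore not compared between EcR and usp. With 5 arrays and this many candidates, close profiles are a description only.

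br, the Broad-Complex, encodes a family of zinc finger proteins with a shared BTB domain and is an early gene of the hormone response. Probe set 141430_at read 315.7, 282.3, 190.6 and 107.8 across culture arrays a to d and 1641 in larval brain. The larval brain value was far above every embryo culture array, and array d was under its background. The embryo culture mean was 224 ± 93.9 (SD, n = 4), and larval brain was 7.32 times this mean. The log2 difference was 2.71 ± 0.63 with an interval from 1.29 to 4.13, an unadjusted p of 0.00191 and a limma adjusted p of 0.0548, which misses the threshold. By unadjusted p it ranked 486th of the 13966 probe sets, just behind the 455 that passed.

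The other probe sets of br had positive differences that did not pass the test and turned to -0.02 and -0.51 with values raised to the background. Probe set 143087_at read 43.4, 39.5, 55.2 and 86.6 in embryo culture, under background on all 4 arrays, and 175.2 in larval brain. Its log2 difference was 1.12 ± 0.53 (interval -0.07 to 2.32, adjusted p = 0.347), and no fold is given, since the larval brain signal did not exceed the geometric mean of the culture backgrounds. Probe set 144385_at read 14.8, 15.5, 8.6 and 8.1 in embryo culture and 66.6 in larval brain, all under background. Its log2 difference was 0.95 ± 0.26 (unadjusted p = 0.0057, adjusted p = 0.0991), a difference between signals that are both under background. All 3 probe sets of br thus had larval brain above every embryo culture array, but only in 141430_at was the gene above background in both sources.

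The call of br (141430_at) depended on the setting, while its direction did not. In 7 of 15 alternatives it passed the threshold, and the log2 differences ran from 2.13 to 4.02 over all 15. All alternatives reuse these arrays, so the passes are not separate support. With c and d alone and with values raised to the background, the fit took the spread almost wholly from other probe sets. With dim probe sets left out br (141430_at) stayed only through larval brain, since its embryo culture mean of 224 lay under the cut of 224.8. It did not pass when any 1 of the 4 embryo culture arrays was left out (adjusted p = 0.0655, 0.0749, 0.0914 and 0.0581 without a, b, c and d). With the 3′ to middle ratio of the control messenger RNAs as a covariate the difference was 3.50 ± 0.73 (adjusted p = 0.0373), and with the 3′ to 5′ ratio 4.02 ± 0.86 (adjusted p = 0.0468). Both slopes rest on the 4 embryo culture arrays and are extrapolated to larval brain, whose mean log2 ratios of 1.146 and 4.237 lie under all of theirs. Within the embryo culture group the signal of br (141430_at) was higher on a and b, the arrays with the strongest 3′ bias and the lowest elav signals. The difference was 2.29 with a and b alone as the comparison and 3.14 with c and d alone.

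**Figure D2:**
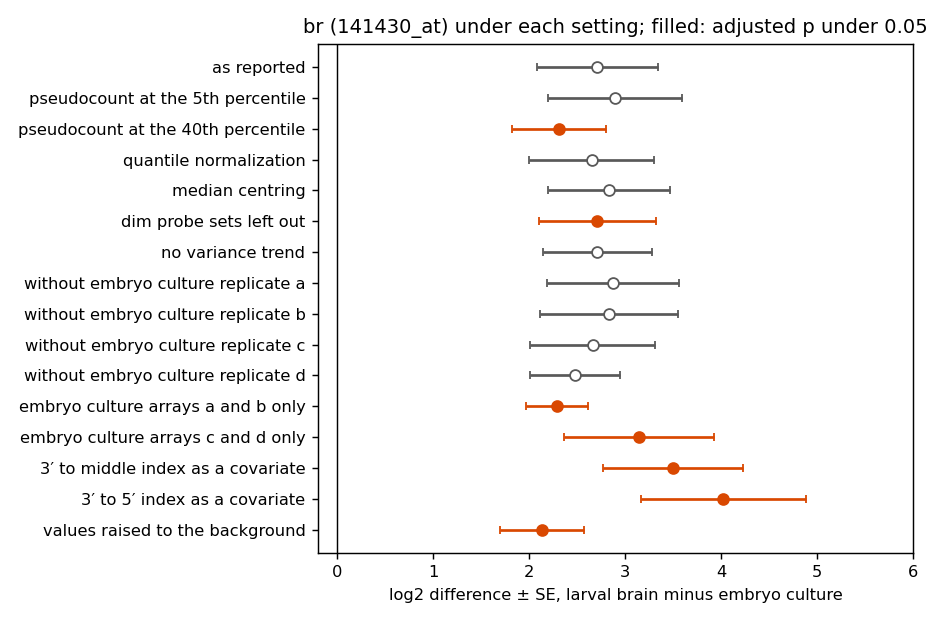
Log2 difference of br (141430_at), larval brain minus embryo culture, with its SE under each of 16 settings, the first as reported. Filled orange points have an adjusted p under 0.05 and open points do not. Every point lies between 2.13 and 4.02, and 7 of the 16 are filled. The settings reuse the same arrays and are not separate support.

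Some progenitor and neuronal markers had higher signals in larval brain as well. The summed signal of 8 neuroblast and ganglion mother cell markers was 1580 to 2223 in embryo culture and 7284 in larval brain, with 7 of 8 above background in larval brain and l(1)sc above it on no array. Most of this sum came from pros, with 3834.7 in larval brain and 344.3, 53.1, 339.1 and 289.5 in the cultures, and mira, with 1911.3 and 278.5, 458.0, 719.0 and 417.1. Of the 8 markers, 5 lay inside the culture range, and the median difference of the 8 was 0.50. The summed signal of 8 neuronal markers was 2375 to 6840 in embryo culture and 9940 in larval brain, with 0 past the threshold and para above background on no array. Their part in the difference of br was not tested. Glial markers (8 measured) summed to 2987 to 4839 and 3243, of which loco gave 1174.9 in larval brain. Of the 8, gcm and alrm lay above the culture range, 3 below it and 3 inside it. The signal of gcm was 673.6 in larval brain and under background on every culture array. The ring gland markers were the steroid synthesis genes dib and sad, with Akh and jhamt. Of them sad lay inside the culture range and the others below it. These 4 summed to 1504 to 2803 and 1109. In the same order, markers of fat body and blood cells (10) summed to 1597 to 4221 and 1025, of gut (5) to 4793 to 5685 and 3216, of muscle (4) to 339 to 1208 and 303, and of salivary gland (7) to 1048 to 3653 and 2205. Of the fat body and blood markers, Hml, Pxn, srp, NimC1, eater, Col4a1 and vkg were higher on a and b than c and d. Lsp2 was lower there, and Fbp1 and Fbp2 overlapped between the pairs. The muscle markers up and bt were also higher on a and b, and Mlp60A and Tm2 overlapped. LysB gave 2607.3 of the larval brain gut sum. Try29F and Muc68D lay above the culture range there, and the other 3 gut markers below it.

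Eip78C encodes a nuclear receptor of the same family as Eip75B and is induced by the hormone. It read 16.8, 37.8, 190.7 and 212.8 across culture arrays a to d and 168.4 in larval brain. Arrays a and b were far below c and d, and larval brain lay near the latter; in embryo culture only c was above its background. The log2 difference of 0.67 ± 0.88 (interval -1.31 to 2.65, adjusted p = 0.764) joined unlike arrays, being 1.54 for a and b alone and -0.21 for c and d alone. With the 3′ to middle ratio as a covariate it was -1.09 and with the 3′ to 5′ ratio -1.94.

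Hr4 encodes a nuclear receptor that acts as a repressor within the cascade, and 1 of its probe sets shared this pattern. Probe set 144004_at read 20.1, 34.3, 134.1 and 164.0 in embryo culture and 157.1 in larval brain, again low on a and b, with only c above background. Its difference was 0.76 ± 0.76 (interval -0.95 to 2.47, adjusted p = 0.687), and it was 1.46 with a and b and 0.06 with c and d as the comparison. Its profile was the nearest to that of Eip78C among all pairs of the 13 probe sets, at a mean gap of 0.16 on the log2 scale. Probe set 144117_at read 24.1, 90.3, 33.4 and 30.3, under background on all 4 arrays, and 141.9 in larval brain, above it. Its difference was 1.09 ± 0.51 (interval -0.07 to 2.26, adjusted p = 0.346), and no fold is given for the same reason as for br (143087_at).

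Hr39 encodes a nuclear receptor related to ftz-f1 that binds like sites. Its signal was 115.9, 156.0, 221.3 and 471.9 across culture arrays a to d and 442.1 in larval brain. It too was lower on a and b, under background there, than on c and d, and larval brain lay inside the range, near the top. The mean was 241 ± 160 (SD, n = 4) and the log2 difference 0.91 ± 0.74 (interval -0.76 to 2.57, adjusted p = 0.611), which came to 1.42 for a and b and 0.39 for c and d. For Eip78C, Hr4 (144004_at) and Hr39 alike, the arrays with the stronger 3′ bias had the lower signals. The difference changed sign when the 3′ to 5′ ratio, extrapolated to larval brain, was a covariate. On the same arrays, a and b, elav was lower (103.8 and 61.4 against 712.6 and 666.7 on c and d), though brp was higher. Bias and cell content therefore cannot be told apart here, and neither was tested as a cause.

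Hr3 encodes the nuclear receptor that activates ftz-f1 before pupation, and its probe sets disagreed. Probe set 146927_at read 29.2, 272.0, 105.1 and 163.7 in embryo culture, above background only on b, and 16.3 in larval brain, under background. Its difference was -1.39 ± 0.79 (interval -3.17 to 0.38, adjusted p = 0.449). Probe set 143123_at read 14.2, 22.8, 114.9 and 13.5, under background on all 4 arrays, and 86.8 in larval brain, just above it. Its difference was 0.73 ± 0.57 (interval -0.56 to 2.02, adjusted p = 0.594). Hr3 was thus above background on 1 array in each of its probe sets, and not on the same array.

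ftz-f1 encodes an orphan nuclear receptor that sets the competence of tissues for the later hormone pulse. It read 165.2, 268.1, 248.1 and 177.2 across culture arrays a to d and 110.4 in larval brain. Larval brain was below all 4 embryo culture arrays, of which only d was under background. The mean was 215 ± 51.1 (SD, n = 4) and the log2 difference -0.71 ± 0.64 (interval -2.15 to 0.73, adjusted p = 0.651). It was -0.71 for a and b alone and -0.71 for c and d alone. Each of these pairs joined a lower and a higher array, and the part of 3′ bias or cell content was not tested. Its profile was nearest to that of usp among these probe sets, at a mean gap of 0.35.

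**Figure D3:**
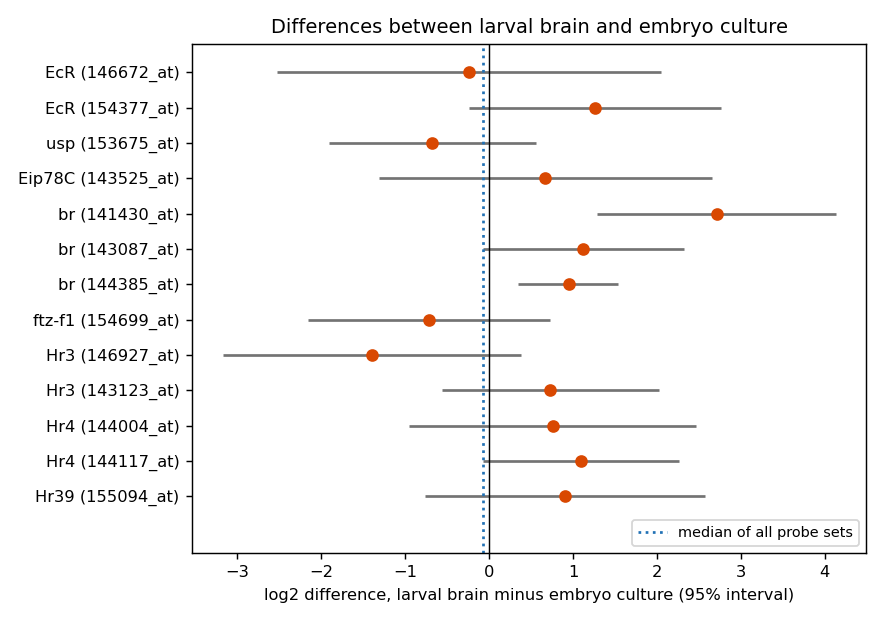
Log2 difference, larval brain minus embryo culture, of the 13 probe sets, with 95% intervals from the limma fit. The dotted line marks the median of all tested probe sets, -0.07. The intervals of br (141430_at) and br (144385_at) lie wholly above 0, and the other 11 include 0.

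The 4 genes with several probe sets differed in how far these went together. In br all 3 had larval brain above the embryo culture arrays, and their profiles were 0.26 apart for 143087_at and 144385_at, both under background on every culture array, and 0.63 and 0.82 apart for 141430_at against 144385_at and 143087_at. In Hr4 the pair was 0.76 apart, in Hr3 1.18 and in EcR 1.27. Both probe sets of Hr4 had positive differences, while EcR and Hr3 had 1 of each sign.

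**Figure D4:**
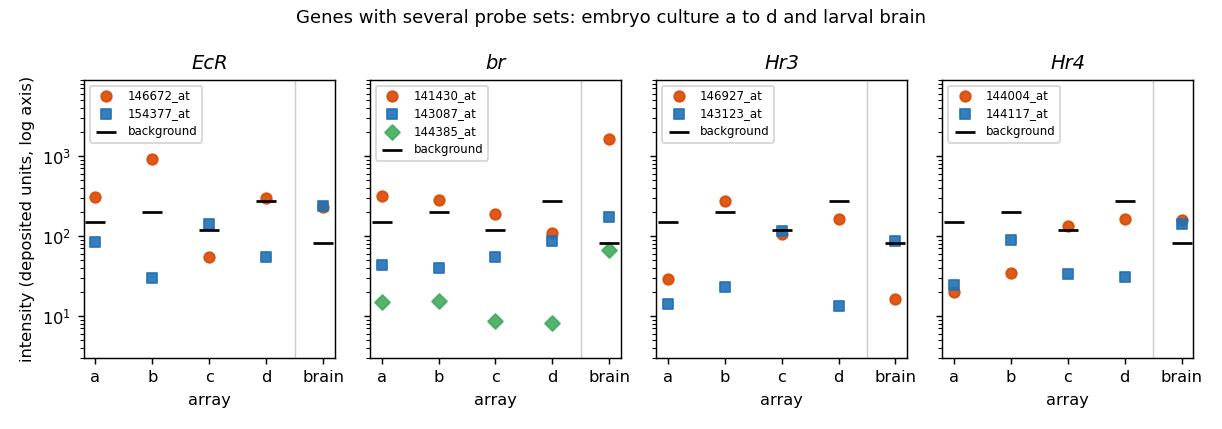
Intensity (log axis) of each probe set of EcR, br, Hr3 and Hr4 on the 4 culture arrays and in larval brain, with the background of each array as a black bar. In EcR arrays b and c change places between the probe sets, and those of br all have their highest point in larval brain.

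The spread between embryo culture arrays set the precision. The SD of the log2 values ran from 0.10 for br (144385_at) to 1.32 for EcR (146672_at), with a median of 0.55 against 0.48 over all tested probe sets. The SE of the difference ran from 0.26 to 1.01, and no probe set on the array passed the test with a difference under 1.34. The median difference of the 13 probe sets was 1.12, 0.93 and 0.57 when larval brain was set against embryo culture arrays a, b and c alone, and -0.05 against d.

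Other genes of the ecdysone pathway were read from 4 lists, each gene by its brightest probe set. Of 15 measured genes for steroid synthesis and turnover, 0 passed the test and 2 had an unadjusted p under 0.05, with a median difference of -0.21. Over all tested probe sets 3.26% passed and 16.0% had an unadjusted p under 0.05. The largest differences were those of ecd, needed for ecdysone production, with an embryo culture mean of 640 ± 182 and 1663.8 in larval brain (1.36 ± 0.47, adjusted p = 0.184), Start1, a sterol transporter gene (1.29 ± 0.60, adjusted p = 0.342), and dib, a cytochrome P450 gene of ecdysone synthesis (-1.18 ± 0.83, adjusted p = 0.554).

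Of 21 measured receptor partners and cofactors, 18 had positive differences (median 0.75), 0 passed the test, and 8 higher and 1 lower had an unadjusted p under 0.05. Over all tested probe sets 46.0% had positive differences and 16.0% an unadjusted p under 0.05. The largest were those of Smr, a corepressor of EcR, with 306.3, 679.4, 468.7 and 520.4 in the cultures and 1898.9 in larval brain (1.89 ± 0.50, adjusted p = 0.0824), of alien, also described as a corepressor of EcR (1.65 ± 0.47, adjusted p = 0.105), and of ash2, a subunit of histone methyltransferase complexes (1.63 ± 0.69, adjusted p = 0.287). The corepressor Smr was above background on every array.

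Of 10 other nuclear receptor genes, 1 rose and 1 fell, against 0.866% and 2.39% of all tested probe sets, and the median difference was 0.06. Hnf4, a regulator of lipid metabolism, read 1276.5, 1643.8, 1790.8 and 1082.4 in the cultures and 323.8 in larval brain (-1.98 ± 0.42, adjusted p = 0.0386). The call of Hnf4 was lost in 9 of 15 alternatives, without array a, b or c among them (adjusted p = 0.0627, 0.0954 and 0.0742). tll, a patterning gene of the embryonic brain, was under background on all embryo culture arrays and at least 1.1-fold higher in larval brain, at 193.8 (adjusted p = 0.0427), and its call was lost in 9 of 14 alternatives, without a, b or c among them (adjusted p = 0.116, 0.12 and 0.109). With values raised to the background its difference was 0.06 (adjusted p = 0.925). The call was also lost with cultures c and d alone (adjusted p = 0.242) and with either 3′ ratio as a covariate (adjusted p = 0.207 and 0.397). Hr83 had the next largest difference (-1.53 ± 0.72, adjusted p = 0.346), with larval brain, at 51.1, under background.

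Of 39 other early and target genes, 19 had positive differences (median -0.09), against 46.0% of all tested probe sets. For 7 higher and 3 lower the unadjusted p was under 0.05, against 16.0% of all. Past the threshold 3 rose and 0 fell, against 0.866% and 2.39% of all. The 3 were ImpE2, ImpL1 and ImpE3, ecdysone-inducible genes of imaginal discs, all at or under background in embryo culture and at least 90.9-fold, 7.05-fold and 2.09-fold higher in larval brain (limma adjusted p = 0.000961, 0.0298 and 0.021). That these stood out was known before the list was made. The calls of ImpL1 and ImpE3 were lost without single embryo culture arrays: that of ImpL1 without a, c or d (adjusted p = 0.0653, 0.0616 and 0.0669) and that of ImpE3 without a, b or c (adjusted p = 0.0698, 0.0611 and 0.071). Both were also lost with either 3′ ratio as a covariate (adjusted p = 0.125 and 0.237 for ImpL1, 0.127 and 0.298 for ImpE3), and ImpE3 with arrays c and d alone (0.121) and with values raised to the background, where its difference was 0.66 (adjusted p = 0.314). ImpE2 kept its call in all 15 alternatives. Whether these targets differ from the regulators in their response was not tested.

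**Figure D5:**
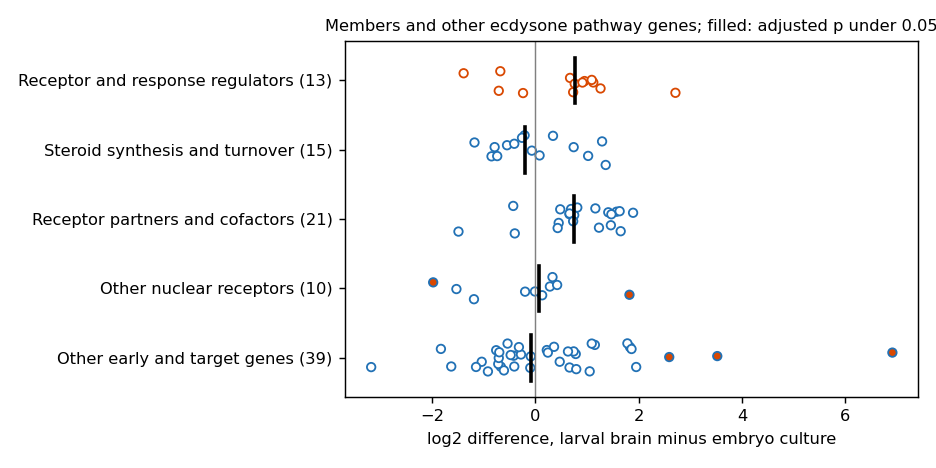
Log2 difference, larval brain minus embryo culture, of the 13 probe sets followed here (orange outlines, top row) and of the other ecdysone pathway genes in 4 lists (blue outlines). Black bars are medians, filled symbols have an adjusted p under 0.05, and the number in brackets is the number measured. The top row shows every probe set, with a median of 0.76 (0.21 with 1 probe set a gene, as in the lists), the list medians lie between -0.21 and 0.75, and ImpE2, at 6.91, is the point farthest to the right.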

How the data were processed

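The authors deposited 1 linear intensity for each of 14010 probe sets on each array. Of these, 44 are controls and 13966 were tested. The values show that the authors scaled every array to a common trimmed mean. Which software and background correction they used is not given in the sources used here. No detection calls came with the intensities. The annotation gives 12443 probe sets 1 symbol, 327 several and 1196 none. A RefSeq table on Release 6, matched by Entrez identifier for 12394 of them, changed 0 symbols. The build behind the annotation is not stated, so no coordinates are printed, and no sequences were used.

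The 20th percentile of the tested intensities, 47.5, was added to each value before log2, without a filter. The test was limma's moderated fit (version 3.58.1, R 4.3.3; eBayes with a variance trend, two-sided, Benjamini-Hochberg), and it was tested on simulated data. Since larval brain has 1 array, the spread comes from embryo culture, with 3 residual degrees of freedom, or 9.11 once moderated, and larval brain is taken to vary as much. Background was defined after the data were seen. "At least N-fold" sets the brighter group's mean against the geometric mean of the backgrounds where the dimmer group never exceeds them. Listed genes with several probe sets were read from the brightest. The members and lists were chosen with earlier results of these data known, and 1 listed target, E(z), is a Polycomb group gene. All members were named, with the list genes past the threshold, filled up to 3 a list by the largest differences, and the 3 nearest profiles to EcR and usp. At most 14 values were identical in any pair of arrays, so none was taken for a copy. Alternatives changed the pseudocount, scaling, filter, variance prior, arrays and covariates. The number of arrays limits the precision. Tables and plots were made with Python 3.11.15, pandas 2.3.3 and matplotlib 3.10.9.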

Additional observations from a re-analysis of the deposited data

Results flagged for a closer look

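By Dixon's test on the intensities, 5 of 31 probe sets of the genes named above had 1 embryo culture array far from the others. Chance flags about 1 in 20 such groups where values are normally distributed, which was not checked for these linear intensities. All 5 flags were high values, and their number is not set against chance. Hr3 (143123_at) had 114.9 on array c against 13.5 to 22.8 on the others. Hr4 (144117_at) had 90.3 on array b against 24.1 to 33.4. The other 3 were all highest on array d, which has the highest background: tll with 41.4, ImpE2 with 225.1 and ImpE3 with 52.7. All 5 values lie under the background of their own array.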

How the results depend on the processing

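None of the 13 probe sets passed in 9 of 16 alternatives; in the other 7, 1 passed, always br (141430_at): a pseudocount at the 40th percentile, dim probe sets left out (5 of the 13 stayed), arrays a and b alone, arrays c and d alone, either index of 3′ bias as a covariate, and values raised to the background, a setting added after the data were seen. Of all probe sets 455 passed; this became 303 with no variance trend, 1746 and 796 with only a and b or only c and d, 264 with the 3′ to 5′ index, 1186 with values raised to the background, and 292 to 411 with 1 culture array left out. Calls higher in larval brain made up 26.6% as reported and 39.0% with the larger pseudocount. The median of the 13 differences, 0.76, went to -0.02 and 0.10 with the 3′ to middle and 3′ to 5′ indices, -0.18 with values raised to the background and 0.21 with 1 probe set a gene.

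Median centring moved the median of all tested probe sets from -0.07 to 0.05, and neither it nor quantile normalization turned any of the 13. Others turned sign without passing the test. With the 3′ to middle index these were EcR (146672_at, 1.48), Eip78C (-1.09), Hr3 (143123_at, -0.02), Hr4 (144004_at, -0.63), Hr39 (-0.05) and dib (0.25). With the 3′ to 5′ index they were EcR (1.57), usp (0.10), Eip78C (-1.94), Hr3 (-0.01), Hr4 (-1.32), Hr39 (-0.75) and dib (0.54). With values raised to the background they were Eip78C (-0.14), br (143087_at, -0.02, and 144385_at, -0.51), Hr3 (-0.48) and Hr4 (-0.12 and, for 144117_at, -0.18). With c and d alone, EcR was 0.58 and Eip78C -0.21, and leaving out 1 culture array moved EcR between -0.80 and 0.27. The cause of these changes was not tested, apart from raised values, which by construction place dim signals at the background of their array. With a 3′ index as a covariate, the slope comes from the embryo culture arrays alone. It is extrapolated to larval brain, whose index lies under all of theirs. Signal over background limits 8 of the 13 probe sets, which were under background on 3 or 4 culture arrays. No paired analysis was possible because the larval brain group has 1 array.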
